A study of Mus musculus with 16 samples.

Results

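The metallothionein cluster of the mouse is a run of 4 genes on 1 strand of chromosome 8, in the order Mt4, Mt3, Mt2 and Mt1. Open chromatin around it was followed as ATAC-seq peaks in a window from 50 kb before the first gene to 50 kb after the last (mm10, chr8:94087197-94230327; genes from GENCODE M21). Merging the overlapping peaks of the 14 libraries compared gave 26 regions in the window, of 80290 in the genome. They are numbered region 01 to region 26 in the direction of transcription. The cluster was chosen by its own values: a region near Mt4 had been seen to be strong in growth medium and absent after serum withdrawal when lists of equal length were compared. Differences between the media in the cluster are therefore given as a description with no test. Tests of the cluster are kept for doxycycline, which the choice did not use.

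Metallothioneins are small, cysteine-rich proteins that bind zinc and copper and take up toxic metals such as cadmium. Mt1 and Mt2 are active in most tissues and are induced by metals through the zinc-sensing factor MTF1, which binds short metal response elements in their promoters. Mt3 is known mainly from the brain and Mt4 from stratified squamous epithelium such as skin and tongue.

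The cells were C2C12 myoblasts of the line C2C12 iMyoD1, which has its endogenous MyoD1 and, in all groups, an integrated transgene for Halo-tagged MyoD1 that doxycycline (dox) switches on. Cells received dox or vehicle for 24 h and in the same hours stayed in growth medium (GM, 75000 cells seeded) or had serum withdrawn (DM, 300000 cells seeded), so that medium and seeding density cannot be told apart. Each combination of medium and dox had 4 libraries, 16 in all. Replicate 1 of DM no dox and replicate 1 of DM +dox were left out as outliers of quality, following the published methods. The comparisons therefore rest on 14 libraries, 4 in each GM group and 3 in each DM group. The transgenic line is a pool of cells, and a weaker peak in bulk chromatin cannot be told apart from fewer cells with the open site.

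Peaks had been called in each library on its own, and the longest kept list held 58587 peaks, at background coverages of 0.339 to 1.13 fragments per base. Of the 2 libraries left out, DM no dox replicate 1 held 1287 peaks at a coverage of 0.398 and DM +dox replicate 1 held 14236 at 0.167. Because list length differed so much, presence was read both in all deposited peaks and in lists of equal length. These equal-length lists hold the strongest peaks by −log10 p of each library, as many as GM no dox replicate 1, the shortest, has in all. Equal length is not an equal threshold. The −log10 p of the last peak ran from 3.94 in GM no dox replicate 1 to 54.6 in DM +dox replicate 2. A rank counts from 1 at the strongest peak of a library. Fold enrichment is the fragment pileup at the summit over the local background, with 1 added to each, as the peak caller wrote it. As a check of the cell type, 2 of 7 myoblast genes, Myod1 and the muscle acetylcholine receptor subunit Chrna1, had a promoter peak in all 14 equal-length lists. Cdh15 had one in 3 of those lists and Myf5, Des, Itga7 and Msc in none, though these 4 had one in 6, 13, 9 and 3 of the 14 full lists. None of the 8 markers of keratinocytes, endothelium, blood and liver had a promoter peak in an equal-length list. In the full lists Krt14 had one in 9 libraries, Pecam1 in 8 and Cd68 in 1, and Krt5, Epcam, Cdh5, Ptprc and Alb in none. Of 4 genes of differentiating muscle none had one in an equal-length list, and in the full lists Ckm had one in 9 libraries, Tnnt1 in 8, and Myog and Mymk in none.

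The sequences at the sites the results turn on are shown first (RefSeq, GRCm38.p6, the assembly of mm10, plus strand, 5′ to 3′). Region 06, the region for which the cluster was chosen, spans chr8:94131974-94132552 in an intergenic stretch, with its summit 4.89 kb before the Mt4 start. Region 07 spans chr8:94134467-94135129, also intergenic, with its summit 2.43 kb before Mt4. Region 09 has its summit 4.19 kb before Mt3. For these 3 the 201 bases around the summit are given (chr8:94132207-94132407, chr8:94134670-94134870 and chr8:94148316-94148516), with the MyoD E-box CAGCTG and the AP-1 site TGANTCA in capitals on either strand. The 2 motifs do not overlap each other.
region 06: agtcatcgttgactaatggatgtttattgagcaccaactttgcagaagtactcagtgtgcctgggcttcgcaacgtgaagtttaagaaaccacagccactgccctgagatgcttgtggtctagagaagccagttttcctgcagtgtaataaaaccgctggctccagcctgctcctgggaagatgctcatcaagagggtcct
region 07: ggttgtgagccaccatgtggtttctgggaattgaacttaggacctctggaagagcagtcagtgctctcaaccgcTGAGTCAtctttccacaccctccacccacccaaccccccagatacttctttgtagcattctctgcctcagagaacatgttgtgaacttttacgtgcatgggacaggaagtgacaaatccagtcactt
region 09: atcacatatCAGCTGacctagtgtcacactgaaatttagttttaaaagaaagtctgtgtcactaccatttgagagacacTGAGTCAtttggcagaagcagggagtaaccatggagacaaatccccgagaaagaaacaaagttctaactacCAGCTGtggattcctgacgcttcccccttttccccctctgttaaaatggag

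None of those letters occur in the window of region 06. The window of region 07 held 1 AP-1 site and that of region 09 held 2 CAGCTG and 1 AP-1 site. Over all 80290 regions of the genome, 19.8% of such windows held CAGCTG and 32.1% held TGANTCA. In the 26 regions of the cluster the shares were 23.1% (6 regions) and 26.9% (7 regions), close to those of the genome. Of region 07, 54.1% of the bases are marked as repeats in the assembly, against 12.3% of region 06.

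For the gene starts, the 250 bases before the RefSeq start of each gene are shown, with the core of the metal response element, TGCACNC or TGCGCNC on either strand, in capitals. They lie at chr8:94136954-94137203 (Mt4), chr8:94152357-94152606 (Mt3), chr8:94172368-94172617 (Mt2) and chr8:94178839-94179088 (Mt1). Region 18, at the start of the long noncoding RNA gene Gm39228 downstream of Mt1, is shown with the same marks (chr8:94183257-94183457), because its window holds the most cores of the cluster.
Mt4: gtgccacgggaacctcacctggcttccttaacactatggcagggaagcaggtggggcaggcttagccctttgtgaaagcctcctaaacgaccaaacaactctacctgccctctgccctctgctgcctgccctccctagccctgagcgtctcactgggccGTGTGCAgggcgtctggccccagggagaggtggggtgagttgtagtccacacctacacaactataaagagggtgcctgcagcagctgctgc
Mt3: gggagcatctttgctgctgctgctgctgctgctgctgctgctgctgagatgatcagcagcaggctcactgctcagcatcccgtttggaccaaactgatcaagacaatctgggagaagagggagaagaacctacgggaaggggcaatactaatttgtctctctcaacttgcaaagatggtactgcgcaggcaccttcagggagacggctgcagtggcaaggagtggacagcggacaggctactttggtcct
Mt2: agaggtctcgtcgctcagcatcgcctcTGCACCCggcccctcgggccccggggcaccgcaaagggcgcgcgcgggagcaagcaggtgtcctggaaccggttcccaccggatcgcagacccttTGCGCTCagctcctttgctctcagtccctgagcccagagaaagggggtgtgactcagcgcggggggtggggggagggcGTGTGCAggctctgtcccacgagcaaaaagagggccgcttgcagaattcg
Mt1: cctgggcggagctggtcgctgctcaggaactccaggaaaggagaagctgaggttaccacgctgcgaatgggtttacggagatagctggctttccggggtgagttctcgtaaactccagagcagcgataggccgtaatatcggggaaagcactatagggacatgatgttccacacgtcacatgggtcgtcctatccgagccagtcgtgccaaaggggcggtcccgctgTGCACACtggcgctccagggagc
region 18: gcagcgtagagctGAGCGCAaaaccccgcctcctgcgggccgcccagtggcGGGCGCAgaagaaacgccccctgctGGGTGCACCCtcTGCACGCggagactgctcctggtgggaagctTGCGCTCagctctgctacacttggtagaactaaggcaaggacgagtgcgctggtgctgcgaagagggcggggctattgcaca

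The Mt2 stretch held 3 cores, which begin 223, 128 and 50 bases before the start, the Mt1 stretch held 1 at 23 bases, the Mt4 stretch 1 at 91 bases, and the Mt3 stretch held none. Of 32851 mouse promoters of the same length, 21.4% held at least 1 such core and 1.26% held 3 or more. These shares are not matched for base composition. The Mt2 stretch has 67.6% GC and 21 CpG, where the medians of those promoters are 52.4% and 6. Counted in 201 bases around the ATAC summit, the cores were more numerous: 5 at the Mt2 start (region 14), 4 at the Mt1 start (region 17), 6 at Gm39228 (region 18), 4 in region 19, 3.47 kb after the Gm39228 start, and 2 in region 12, with its summit 5.24 kb before Mt2. Some cores in region 18 overlap each other. The other 21 regions held none, region 06 and region 07 included. Over all regions of the genome 14.2% of windows held at least 1 core, against 19.2% of those in the cluster (5 of 26). Part of the cores of region 17 lie inside the longest annotated Mt1 transcript, whose start at 94179082 precedes those of 2 shorter ones at 94179211 and 94179241.

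Open chromatin in the cluster was concentrated at a few sites. Of the 26 regions, 5 had a peak in all 14 libraries: the starts of Mt2 and Mt1, region 07 before Mt4, and the starts of the flanking genes Bbs2 (region 02), a part of the BBSome that serves cilia, and Nup93 (region 24), a nuclear pore subunit. A further 14 regions had a peak in 2 to 13 libraries, and 7 in 1 library only. No region covered the start of Mt4 or of Mt3. In the equal-length lists, 13 of the 26 regions appeared in at least 1 library, and 4 of them in all 14: those at the starts of Bbs2, Mt2, Mt1 and Nup93.

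**Figure D1:**
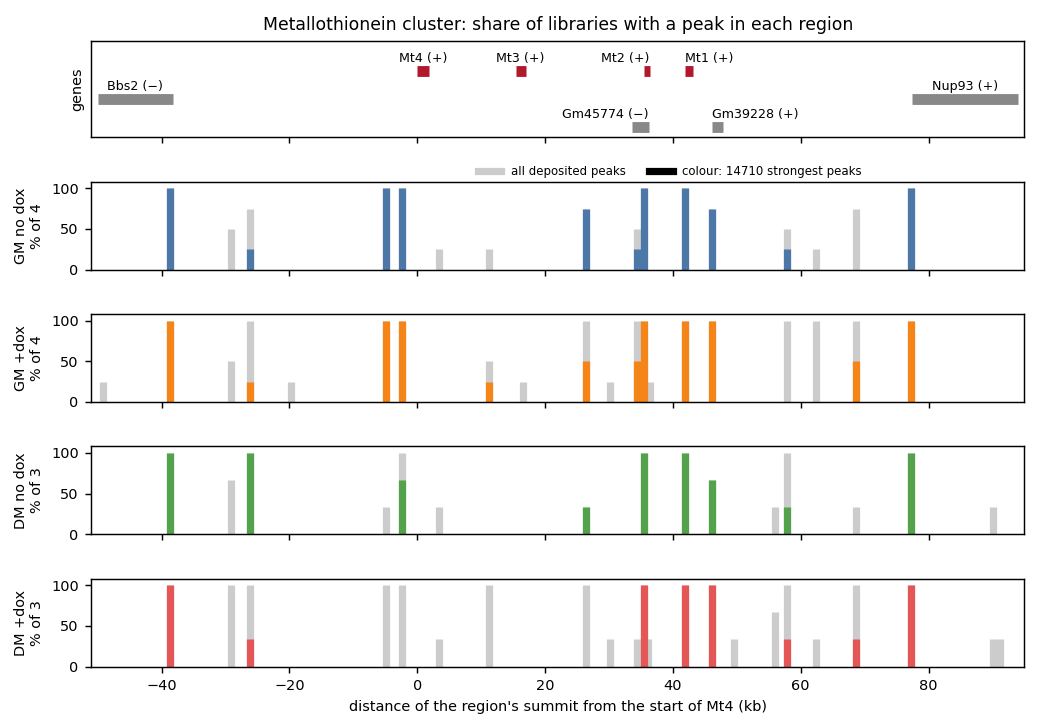
Genes of the window (top) and, for each of the 4 groups, the percent of its libraries with a peak in each of the 26 regions, against the distance of the summit from the Mt4 start in kb. Grey bars use all deposited peaks and coloured bars the equal-length lists. In the coloured bars, the 2 regions before Mt4 stand at 100% in both GM groups, while in DM +dox both are missing.

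Ranked by −log10 p, the Mt1 start (region 17, chr8:94178794-94179442) was among the strongest peaks of every library. Its rank ran from 29 to 214 in the 8 GM libraries and from 15 to 81 in the 6 DM libraries, which is within the top 0.927% of each list. Fold enrichment there was 9.04, 19.2, 10.9 and 14.9 in GM no dox and 17.2, 21.1, 14.7 and 14.4 in GM +dox. It was 14.3, 15.0 and 14.2 in DM no dox and 22.2, 18.8 and 16.4 in DM +dox. The 4 groups overlapped in part, and the 3 DM +dox values lay above all 3 DM no dox values. Before normalisation, fold enrichment over all fitted regions of the genome was also higher with dox, by a median of 0.49 on the log2 scale in DM and 0.40 in GM. Both libraries that were left out also had the peak, at ranks 300 and 155.

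The Mt2 start (region 14, chr8:94172223-94173173) was open in all 14 libraries as well, but less so than that of Mt1. Fold enrichment was 4.54, 15.0, 8.40 and 12.4 in GM no dox and 11.6, 12.1, 12.5 and 13.6 in GM +dox. DM no dox gave 12.2, 10.5 and 12.6, and DM +dox gave 21.1, 15.8 and 14.6. The ranks lay between 1041 and 7681 in GM and between 315 and 2989 in DM, so the ranges of the media overlapped. The region also lies in the body of Gm45774, a gene on the opposite strand.

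Region 06, by contrast, changed its place in the lists with the medium. It had a peak in 8 of 8 GM libraries, at ranks 1028, 2776, 1505 and 1675 without dox and 1121, 4703, 2313 and 6851 with dox. Among all deposited peaks of DM it was listed in 1 of 3 libraries without dox (replicate 4, rank 14798) and in 3 of 3 with dox, at ranks 28125, 16518 and 21869. Every DM rank was thus past every GM rank, and no DM library had the region in its equal-length list. The best of the DM ranks missed the end of that list by 88 places, so the region is absent from DM in lists of that length and not in the full lists. Its −log10 p was 21.5 to 102 in GM no dox and 37.5 to 89.8 in GM +dox. It was 32.1 in DM no dox replicate 4 and 23.1 to 30.2 in DM +dox. The equal-length lists of DM +dox ended at 33.7 to 54.6 and that of GM no dox replicate 1 at 3.94. Those of DM no dox ended at 14.2, 11.7 and 32.3, and those of GM +dox at 22.1 to 41.4. Whether the cut accounts for an absence from a DM list was not tested. The 2 DM libraries without a listed peak, DM no dox replicates 2 and 3, had the shortest DM lists kept, of 23690 and 24181 peaks. GM no dox replicates 1 and 3 had shorter full lists than either, and listed the region at ranks 1028 and 1505. Whether list length accounts for the missing DM peaks was not tested.

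Fold enrichment as deposited overlapped between the media at region 06. GM no dox gave 7.18, 13.5, 9.46 and 14.1 and GM +dox gave 16.3, 12.2, 12.7 and 9.65. The listed DM values were 9.36 in DM no dox replicate 4 and 8.06, 10.3 and 8.30 in DM +dox. The 3 DM +dox values overlapped the range of GM no dox and, in 1 library, that of GM +dox. After quantile normalisation over the regions listed in at least 2 libraries of each group, DM +dox minus GM +dox was −0.58 ± 0.20 (SE) at region 06 on the log2 scale, from the libraries with a peak. Expressed as the pileup over the background coverage of the library, region 06 had 45.4 to 254 in GM no dox and 61.6 to 249 in GM +dox. Where listed in DM it had 49.9 in DM no dox replicate 4 and 35.5 to 51.9 in DM +dox. On this scale the media overlapped without dox and did not overlap with dox.

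Region 07, the nearer of the 2 regions before Mt4, had a peak in all 14 libraries. Its ranks were 5062, 3987, 6938 and 4953 in GM no dox and 4221, 2176, 6834 and 11766 in GM +dox. DM no dox followed with 10601, 7972 and 16073, and DM +dox with 17405, 20204 and 20312. It was therefore in the equal-length lists of 8 of 8 GM libraries, of 2 of 3 in DM no dox and of 0 of 3 in DM +dox. Its −log10 p was 18.4 to 29.5 in DM no dox and 24.1 to 45.3 in DM +dox. The equal-length lists of these groups ended at 11.7 to 32.3 and at 33.7 to 54.6, so the DM counts rest on unequal cuts. Fold enrichment overlapped between the media, at 5.18 to 15.1 in GM and 7.59 to 12.5 in DM.

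**Figure D2:**
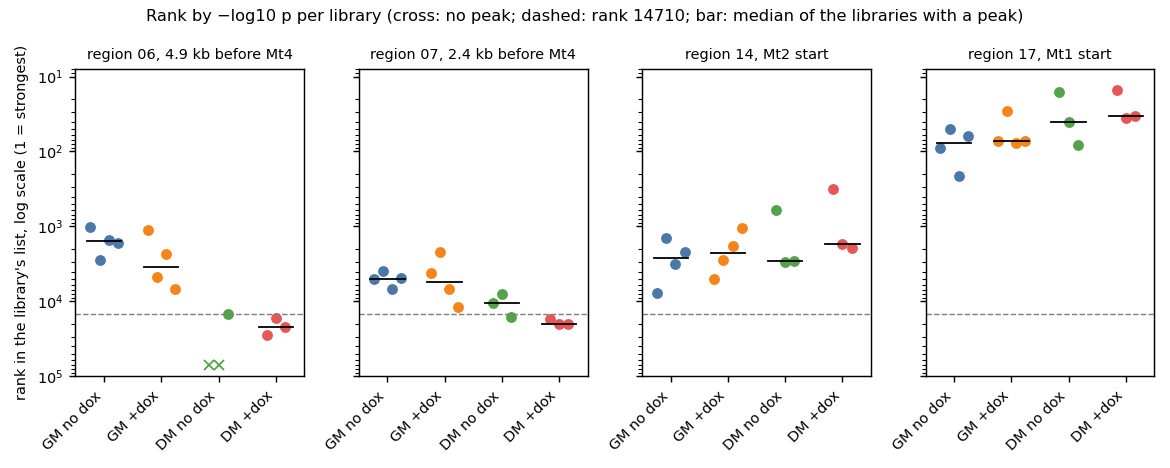
Rank of the strongest peak (log axis, strongest at the top) in each of the 14 libraries for the 2 regions before Mt4 and for the starts of Mt2 and Mt1, with libraries grouped on the x axis. At the region 4.89 kb before Mt4 all 8 GM points lie above the dashed line, which marks the last rank of the equal-length lists, and every DM point or cross lies below it, while at the Mt1 start all 14 points lie at rank 214 or better.

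**Figure D3:**
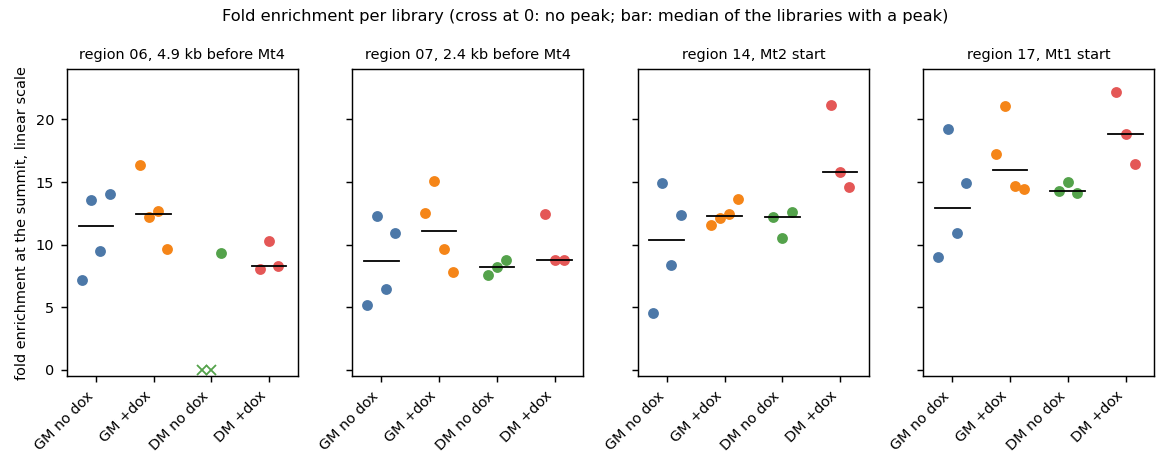
Fold enrichment at the summit (linear axis) for the same 4 regions and 14 libraries, with crosses at 0 for the libraries without a peak. The DM values where region 06 was listed, 8.06 to 10.3, lie inside the range of the GM values, 7.18 to 16.3.

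A region is called all-or-none here if it has a peak in every library of one group and in none of the other. In the equal-length lists, DM without dox against GM without dox gave 1 such region of the 11 cluster regions present in either group, region 06, lower in DM. Over the genome 1.04% of 23631 regions were lower in DM in that sense. With dox 2 of 13 were lower in DM, regions 06 and 07, against 1.11% of 22451. None was higher in DM in either comparison, where the genome had 0.986% without dox and 1.11% with dox. With both GM groups set against both DM groups, region 06 was 1 of the 50 regions of the genome that were present in all 8 GM lists and in no DM list, which is 0.191% of 26153. Among all deposited peaks no cluster region was all-or-none between the media. Without dox this was 0 of 18 in each direction, against 0.205% of the genome in each. With dox it was 0 of 26 in each direction, against 1.49% higher and 0.319% lower in DM. With both GM groups set against both DM groups it was 0 of 26, against 0.00872%. Nothing is read from these counts, since the cluster was chosen for this contrast. Of those 50 regions, the 5 nearest to region 06 in mean GM rank (2746.5 for region 06) were looked up. None of the 5 lay closest to a gene of the metal handling or cell type lists.

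Toward Mt3 and Mt2 the peaks were weaker. Region 11 (summit 9.05 kb before Mt2, 1 CAGCTG in its window) was listed in 7 of 8 GM libraries, at ranks 6451 to 19767, and in 4 of 6 DM libraries, at ranks 14287 to 28010. Region 13, 1.06 kb before Mt2 and inside Gm45774, was listed in 6 of 8 GM libraries and in 1 of 6 DM libraries, with fold enrichment of 3.48 to 9.89 in GM and 4.48 in DM. Region 10 in an Mt3 intron was listed in 1 library of GM +dox only. In most libraries these regions ranked near or past the end of the equal-length lists.

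Downstream of Mt1, region 18 at the start of Gm39228 was listed in 7 of 8 GM and 5 of 6 DM libraries, each time in the equal-length list too. Its fold enrichment was 7.78, 6.41 and 7.95 in GM no dox and 8.45, 7.10, 8.57 and 8.14 in GM +dox. The DM no dox values were 6.56 and 7.66 and those of DM +dox 7.23, 8.61 and 7.71. The 4 groups overlapped. Upstream, region 04 (26.2 kb before Mt4) had the opposite order to region 06 without dox only. It was in the equal-length lists of 3 of 3 DM no dox libraries, 1 of 3 DM +dox libraries and 1 of 4 in each GM group. Its −log10 p was 15.0 to 44.9 in DM no dox, where those lists ended at 11.7 to 32.3. In DM +dox it was 38.9 to 40.7, with lists that ended at 33.7 to 54.6. The ranks of region 04 were 12607 to 29897 in GM and 7756 to 19722 in DM, ranges that overlapped.

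**Figure D4:**
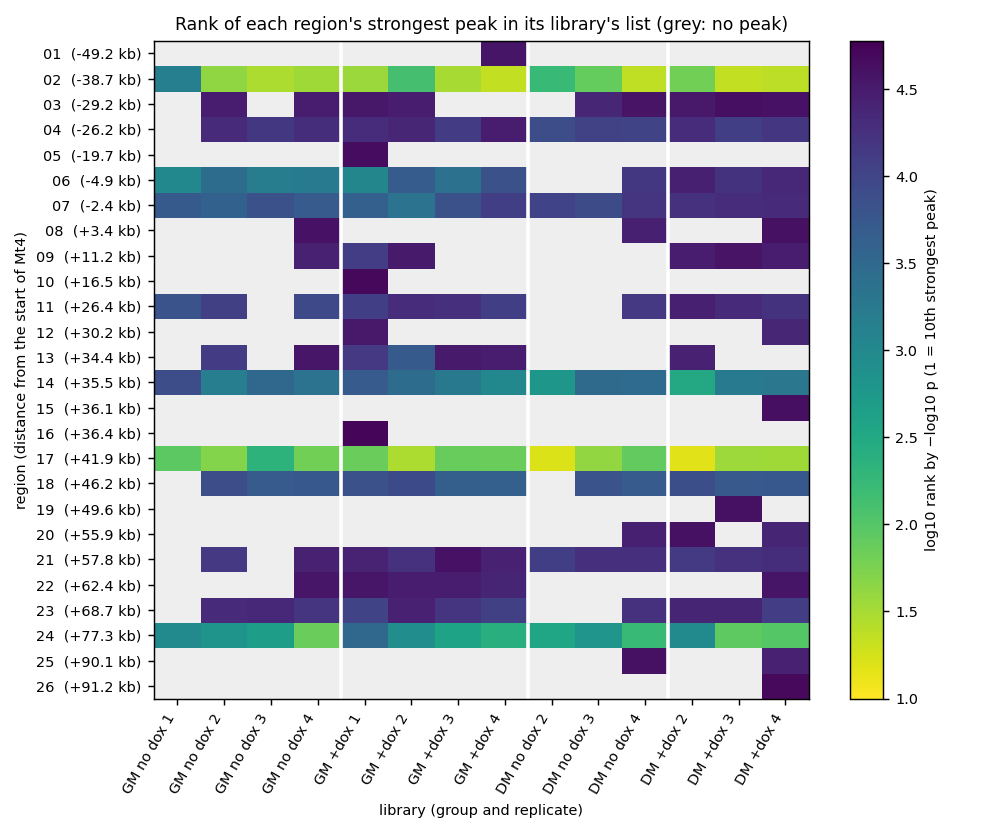
Rank of the strongest peak (colour, log10 scale, yellow strongest) of the 26 regions (rows, with the distance from the Mt4 start) in the 14 libraries (columns); grey means no peak. The row of the Mt1 start (17) stays at rank 214 or better in every column, and the row of region 06 is darker or grey in all 6 DM columns.

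The question the dox comparisons address is whether a raised MyoD1 level alters open chromatin. Dox did not detectably change the cluster in either medium. The study detected Halo-MyoD1 in only a minority of the nuclei of this line after 24 h of dox and serum withdrawal. The bulk values are therefore averages over cells with and without the induced protein. The number of window peaks in the equal-length lists was 7, 10, 8 and 8 in GM no dox and 11, 8, 8 and 9 in GM +dox. The means were 8.25 ± 1.26 and 9.0 ± 1.41 (SD, n = 4 each). They differed by 0.75, less than the SD of either group (exact permutation test, two-sided, p = 0.6). In DM each of the 3 libraries without dox had 7 and each of the 3 with dox had 6. The same test gave p = 0.1 for that difference of 1 peak, and an exact permutation test of 3 libraries against 3 cannot give less. With all deposited peaks the order in DM turned, from 7, 9 and 15 in DM no dox to 15, 14 and 20 in DM +dox, a difference of 6 peaks (exact permutation p = 0.3). The full DM +dox lists were longer, at 46241 to 51340 peaks against 23690 to 40599.

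By presence, no cluster region was all-or-none for dox in the equal-length lists. In GM this was 0 of 13 regions in each direction, where the genome had 0.163% higher and 0.124% lower with dox. In DM it was 0 of 10 in each direction, against 0.820% and 0.787%. Among all deposited peaks, dox in GM raised 0 and lowered 0 of 21 cluster regions in this sense, against 0.446% and 0.00% of the genome. In DM 0 of 22 were lower, against 0.0142%, and 1 of 22 was higher, region 09 before Mt3, against 5.37% of 63484 regions, so a single such region among 22 is near the background. Region 09 was listed in 3 of 3 DM +dox libraries with a fold enrichment of 9.15, 5.55 and 6.90, at ranks 31127, 38131 and 31106, and in 0 of 3 without dox. In GM it was listed in 1 of 4 libraries without dox and 2 of 4 with dox. Each of the DM +dox ranks exceeded the whole length of the lists of DM no dox replicates 2 and 3, and only replicate 4, with 40599 peaks, had a longer list.

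For the 5 regions with a peak in all 14 libraries, fold enrichment was compared with limma on log2 values, fitted over all 11046 such regions of the genome. No region of the cluster passed an adjusted p of 0.05 with dox in GM or in DM, and neither did any other fitted region (0.00% called in each, with 674 and 741 at an unadjusted p under 0.05). A region without a peak in some library, such as one gained or lost with dox, cannot enter this fit. It also uses fold enrichment of called peaks and no read counts. The study's own comparison of accessibility reported modest changes with dox in both media. At the Mt1 start the log2 difference was −0.05 with dox in GM (95% interval −0.30 to 0.21, limma adjusted p = 0.961). In DM it was −0.10 (−0.39 to 0.20, limma adjusted p = 0.910). At the Mt2 start the values were 0.05 in GM (−0.28 to 0.39) and 0.01 in DM (−0.38 to 0.39). Without normalisation the Mt1 values were 0.36 in GM and 0.39 in DM, when the median of all fitted regions was itself raised by 0.40 and 0.49, so their sign depends on the scaling. With quantile normalisation the intervals leave out a change of 1 on the log2 scale at both starts in both media. This too depends on the scaling. Without normalisation the upper limits were 0.96 in GM and 1.08 in DM at the Mt1 start, and 1.04 and 1.23 at the Mt2 start.

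Region 07 before Mt4 differed by 0.02 with dox in GM (95% interval −0.30 to 0.34, limma adjusted p = 0.987) and by −0.20 in DM (−0.57 to 0.17, limma adjusted p = 0.859). With the pileup over background coverage in place of fold enrichment, the DM value was −0.63 with a standard error of 0.22 (limma adjusted p = 0.593). The Bbs2 and Nup93 starts gave 0.09 and −0.13 in GM and 0.03 and 0.04 in DM. The dox effect did not differ detectably between the media at any of the 5 regions (interaction, lowest limma adjusted p = 1.00). Region 06 could not enter this fit, because 2 DM libraries had no peak there. In the fit of regions listed in at least 2 libraries of each GM group it differed by −0.13 with dox in GM (95% interval −0.50 to 0.24, limma adjusted p = 0.965).

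**Figure D5:**
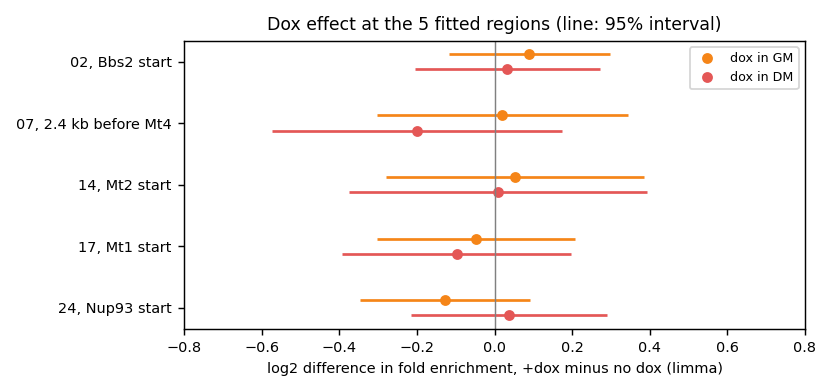
Log2 difference in fold enrichment, +dox minus no dox, in GM and in DM for the 5 regions with a peak in all 14 libraries; points are limma estimates and lines their 95% intervals. All 10 intervals include 0.

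For the differences between the media at the same regions, limma gave estimates that are stated with no test. Without dox, DM minus GM was 0.04 ± 0.13 (SE) at the Mt1 start, 0.31 ± 0.18 at the Mt2 start and −0.04 ± 0.17 at region 07. With dox the values were −0.01 ± 0.13, 0.26 ± 0.18 and −0.27 ± 0.17. With the pileup over background coverage in place of fold enrichment, region 07 was at −0.78 ± 0.21 without dox and −1.25 ± 0.21 with dox. On that scale the Mt1 start was at 0.29 ± 0.12 and 0.22 ± 0.12 and the Mt2 start at 0.09 ± 0.17 and 0.15 ± 0.17, so the size of the difference at region 07 depends on the measure. The number of window peaks in the equal-length lists was lower in DM than in GM by 1.25 without dox and by 3.00 with dox. There the 3 DM +dox libraries, with 6 each, lay below every GM +dox library. With all deposited peaks the mean without dox was 10.3 in DM and 11.25 in GM, and with dox the order turned, to 16.3 in DM and 15.25 in GM.

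A list of 26 genes of metal handling and the antioxidant response was read for comparison. Promoter peaks, taken within 1 kb of an annotated start, were present in all 14 full lists for 14 of the 26, among them Mtf1, which encodes the factor that binds metal response elements, and Slc30a1, a zinc exporter of the plasma membrane. In the equal-length lists this held for 13 of 26, and Slc30a10, a manganese exporter, had no promoter peak in any kept list. The share over the promoters of all genes is not given here, so nothing is read from these counts. The 14 genes had 15 promoter regions in the limma fit. None of the 15 was called with dox in GM or in DM, nor with the medium without dox, where 0.263% of all fitted regions were called, or with dox, where 0.0453% were. Their median log2 difference was 0.02 and −0.01 with dox in GM and DM and 0.07 in both comparisons of the media, beside medians over all fitted regions of −0.0021, −0.0035, 0.014 and 0.0094. At the Mtf1 promoter the estimates were 0.02 with dox in GM and 0.07 for DM against GM without dox (limma adjusted p = 0.985 and 0.902), and at Slc30a1 they were 0.17 and 0.16 (limma adjusted p = 0.873 and 0.734).

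At the edges of the window, the first region inside lay 0.505 kb from the limit and the last 1.71 kb. The nearest regions outside lay 13.6 kb before and 5.56 kb after it. Each of the 4 had a peak in 1 library, none in an equal-length list, so a slightly wider or narrower window takes in or loses only such regions.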

How the data were processed

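Peak lists of ATAC-seq libraries of C2C12 iMyoD1 cells were used, 1 per library, grouped by the GEO labels. The authors processed the reads with nf-core/atacseq 2.1.2 against mm10, removed a blacklist and called narrow peaks per library with MACS2. The submitters' processing notes also name deepTools, and the aligner is not given in the sources used here. Each deposited list gives a score (not used further), the fold enrichment (a ratio) and the −log10 p-value and −log10 q-value of a peak, all as the authors made them. No read counts per region were used. Replicate 1 of both DM groups was left out, as in the study's methods.

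Peaks of the 14 libraries were merged where they overlapped. The strongest peak of a library stood for it in a region. Pileup and background coverage were solved from the fold enrichment and p of each peak. Whole pileups came out for at least 96.0% of the peaks of each kept library. limma 3.58.1 (R 4.3.3) with a mean-variance trend was fitted to quantile-normalised log2 fold enrichment over regions with a peak in all 14 libraries, with all 4 groups in 1 fit, Benjamini-Hochberg adjustment over all regions and a threshold of 0.05, and was tested on simulated data. Numbers of window peaks were compared by two-sided exact permutation tests. The labels call the replicates biological. Same-numbered libraries deviated together in all 13 pairs (correlation of deviations from group means 0.106 to 0.465), so the numbers were taken, from the data, to pair the libraries. A differently numbered library correlated more for replicate 4 of dox in GM (0.212 against 0.196). The same held for replicate 2 of DM against GM without dox (0.142 against 0.106). The main fit and tests did not use the pairing, and fits with the replicate as a block are among the alternatives. Motifs were searched as letters within 100 bases of a summit and in RefSeq promoter sequence, and all 4 genes matched the promoter table.

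The cluster, its window and the gene lists were chosen with earlier results of these data known. The named items are the 4 genes, the regions of the window and the genes of the lists. Other lists, window widths, scalings, thresholds and left-out libraries were tried.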

Additional observations from a re-analysis of the deposited data

Results flagged for a closer look

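1 of 21 sets of 4 GM values that were examined had a library apart from the other 3 by Dixon's criterion, and chance alone gives about 1 in 20. It was the fold enrichment of region 23, an intergenic site 8.64 kb before Nup93, which was 16.8 in GM +dox replicate 1 and 9.88 to 10.3 in the other 3 GM +dox libraries. The cause was not tested. Region 23 was listed in 11 of 14 libraries and was in 3 of the equal-length lists.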

How the results depend on the processing

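The number of window peaks with dox in GM (0.75 more) turned to −1.25 with lists ranked by fold enrichment (exact permutation p = 0.286), and ran from 0.083 to 1.33 with 1 library left out. With dox in DM (−1 peak) it turned to 6 with all deposited peaks, to 6 with all those of q under 0.01, to 0.33 with lists shortened to their stronger part and to 0.25 with all 16 libraries, with exact permutation p of 0.3, 0.3, 1 and 1, and stayed at −1 with any 1 library left out. DM against GM with dox (−3 peaks, no test) moved to 1.08 with all deposited peaks and with those of q under 0.01, and to −1.42 with lists ranked by fold enrichment. It ran from −3.33 to −2.33 without 1 library, and from −1.67 to −0.67 without dox. The cause of these changes was not tested. With the replicate block (sign-flips of paired differences) the dox differences were 0.75 in GM (exact p = 0.75) and −1 in DM (exact p = 0.25, the smallest 3 pairs allow), and the media differed by −1.67 and −2.33. No cluster region was called for dox under any of the 18 other settings in GM or 16 in DM, where 2 to 13 regions could be fitted and the lowest limma adjusted p was 0.287. The blocked limma fit called 0 of the cluster regions in either medium. Over all regions it called 0 with dox in GM and 9 with dox in DM (0 without the block), and between the media 130 and 39 (29 and 5 without it). Median centring called 7 with dox in DM, and 53 and 28 between the media. The shortest kept list limits what can be called absent. With the pileup over background coverage, region 07 differed between the media by −0.78 and −1.25 on the log2 scale, in place of −0.04 and −0.27, and the fit called 281 and 269 of all regions.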
